A study of Mus musculus with 12 samples.

Results

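The genes described here are 10 genes of desmosomes and of the plakin family: Dsg2, Dsc2, Jup, Pkp1, Pkp2, Pkp3, Dsp, Evpl, Ppl and Perp. They were chosen by name, with earlier results of these data known. They are the rows of the deposited tables whose gene symbol is on that list, and they are 10 of 56691 genes. All 10 were found in the table of each line. They were measured by RNA-seq in 4T1 and EMT6, 2 mouse mammary carcinoma lines grown in culture. In each line a control group of genotype WT was set beside a group of genotype KO. The series' design text gives the KO derivatives as sgNEDD4, which by usual notation is a guide RNA to Nedd4. Each of the 4 groups has 3 libraries, 12 in all, and 1 batch label covers them. The labels do not tell separate cultures from repeat libraries, a clone from a pool, or whether controls carried a guide. P-values therefore measure only the spread between these libraries.

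Desmosomes are spot-like junctions that tie the keratin filaments of neighbouring epithelial cells together. Desmosomal cadherins (desmogleins and desmocollins) bridge the gap between the cells. Plakoglobin and the plakophilins, which are armadillo-repeat proteins, bind the cadherin tails, and desmoplakin, a plakin, links them to keratin. Envoplakin and periplakin are related plakins best known from the cornified envelope of skin. Perp is a tetraspan membrane protein of desmosomes and a target gene of p53 and p63.

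Levels are in FPKM, reads scaled to exonic gene length and to the counted reads of the library, with standard deviations (SD) over n = 3 libraries. Changes are log2 of KO over control from edgeR's quasi-likelihood test and carry the fit's standard error (SE). A gene is called where the p-value adjusted over all tested genes of that comparison (Benjamini-Hochberg) is under 0.05. The fit rescales libraries by TMM, so a fitted fold can differ a little from the ratio of mean FPKM. Libraries held 13705612 to 19761604 counts, so that 3 counts correspond to 0.152 to 0.219 CPM, the count scaled to the library's total. Nedd4, the targeted gene, fell in both lines, to 26.3% of its control FPKM in 4T1 (log2 change -2.01 ± 0.04) and 9.92% in EMT6 (-3.34 ± 0.06). The 4T1 KO libraries listed 20937 to 21264 genes with a count and the 4T1 controls 18836 to 19017. The part of this difference in the 4T1 results was not tested. 4T1 carried all 4 mammary epithelial markers (Epcam, Krt8, Krt18, Cdh1) at 5 FPKM or more. In EMT6 only Krt8 and Krt18 reached that level, and Cdh1, which encodes E-cadherin, had 0 to 2 counts per library.

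In EMT6, desmoplakin, periplakin, Pkp3, Pkp2 and Evpl fell to between 18.0% and 55.3% of control, while Perp rose 42.4-fold from a level near the detection limit. In 4T1, Evpl was again lower, at 30.8% of control, and Pkp1 stood at 63.5%, while the other called members changed by at most 0.30 on the log2 scale. Of the 9 members tested in 4T1, 6 were called lower and 1 higher, against 29.0% and 28.0% of all 13313 tested genes. Of the 7 tested in EMT6, 5 were called lower and 1 higher, against 28.2% and 27.9% of 12890. Since the members were chosen with earlier results known, these counts are descriptions. The median change of the tested members was -0.22 in 4T1 and -1.33 in EMT6, with a median of 0.00 over all tested genes in each line. With scaling by total counts only, the share of called 4T1 genes that were higher was 61.2% in place of 49.1%. The 1 member called higher in 4T1 was Dsp, and the number was 0 to 2 over the fits that left out 1 library.

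**Figure D1:**
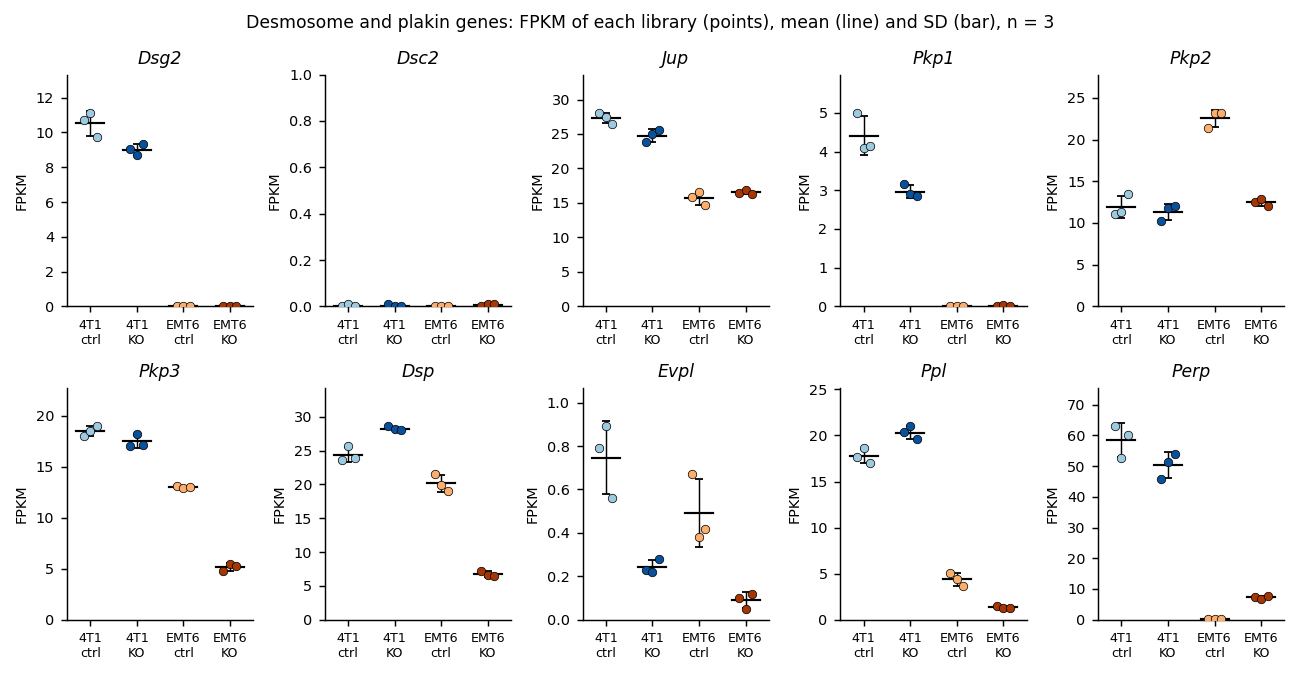
FPKM (y axis, linear from 0, a separate scale in each panel) of each of the 10 members in the 4 groups (x axis). Points are libraries, lines are means and bars are SD over 3 libraries. Dsg2 and Pkp1 are seen in 4T1 and lie at or near 0 in EMT6, Dsc2 lies near 0 throughout, and Dsp, Ppl, Pkp2 and Pkp3 stand lower in the EMT6 KO libraries than in all EMT6 controls.

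Among the desmosomal cadherins, Dsg2, the desmoglein most widely used by simple epithelia, was the only one present at an appreciable level, and only in 4T1. Dsg2 (ENSMUSG00000044393, chromosome 18, 20691131 to 20737578, plus strand in the deposited tables) stood at 10.7, 11.1 and 9.73 FPKM in the 4T1 controls. The KO libraries had 9.03, 8.71 and 9.32 FPKM. All KO values lay below all control values. The change was -0.30 ± 0.06 (edgeR, adjusted p = 8.06e-05). In EMT6, Dsg2 had 0 counts in all 6 libraries, against 1103 to 1434 counts per 4T1 control library. Set against a floor of 3 counts per library, Dsg2 was at least 415-fold higher in control 4T1 than in control EMT6.

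Dsc2, the desmocollin partner of Dsg2 in many tissues, was at or near 0 everywhere. Dsc2 (ENSMUSG00000024331, chromosome 18, 20163690 to 20192611, minus strand) had 0 or 1 count in each of the 12 libraries and was not tested. The other desmosomal cadherin genes were also at low counts. The 3 desmocollin genes together had 1 count in the 4T1 controls, 1 in the 4T1 KO libraries, 0 in the EMT6 controls and 2 in the EMT6 KO libraries. Dsg3, a desmoglein of stratified epithelia, had 4 to 16 counts per 4T1 library. Over all 9 desmoglein and desmocollin genes, the EMT6 libraries held 2 counts in all, so that at this depth no desmosomal cadherin transcript was detectable above 3 counts in any EMT6 library, although the genes of the cytoplasmic plaque were read.

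Plakoglobin, the armadillo protein shared by desmosomes and adherens junctions, was among the steadier members. Jup (ENSMUSG00000001552, chromosome 11, 100259784 to 100288589, minus strand) stood at 28.0, 27.4 and 26.5 FPKM in the 4T1 controls, while the KO libraries read 23.8, 25.0 and 25.6 FPKM. The 4T1 groups did not overlap, and Jup fell by 0.22 ± 0.05 (edgeR, adjusted p = 0.000241). With scaling by total counts only, the 4T1 change was -0.14. In EMT6, Jup stood at 15.8, 16.5 and 14.7 FPKM in controls and at 16.5, 16.8 and 16.3 FPKM in KO libraries. These groups overlapped, and the change was 0.08 ± 0.06 (edgeR, adjusted p = 0.299), with a 95% interval of -0.04 to 0.20.

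The plakophilins, which cluster desmosomal cadherins and recruit desmoplakin, differed between the lines in which gene was highest. Pkp1 (ENSMUSG00000026413, chromosome 1, 135799133 to 135846945, minus strand), typical of stratified epithelia, stood at 4.99, 4.09 and 4.15 FPKM in the 4T1 controls. The KO libraries had 3.15, 2.91 and 2.84 FPKM. The groups did not overlap, and Pkp1 fell by 0.65 ± 0.10 (edgeR, adjusted p = 4.04e-06). In EMT6, Pkp1 had 0 counts in 5 libraries and 4 counts in KO replicate 2, and it was not tested. Against a floor of 3 counts per library, Pkp1 was at least 106-fold higher in control 4T1 than in control EMT6.

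Pkp2, the plakophilin of simple epithelia and heart, was the highest member in control EMT6. Pkp2 (ENSMUSG00000041957, chromosome 16, 16031182 to 16090576, plus strand) stood at 21.4, 23.2 and 23.2 FPKM in the EMT6 controls, while the KO libraries read 12.51, 12.89 and 11.98 FPKM. The EMT6 groups were far apart, and Pkp2 fell by 0.86 ± 0.06 (edgeR, adjusted p = 7.37e-09). In 4T1, Pkp2 stood at 11.04, 11.34 and 13.42 FPKM in controls and at 10.23, 11.76 and 12.02 FPKM in KO libraries. The 4T1 groups overlapped, and the change of -0.15 ± 0.07 was not called (edgeR, adjusted p = 0.0715). It would be called without control replicate 1 (-0.21, adjusted p = 0.0231), without KO replicate 3 (-0.19, adjusted p = 0.0427) or in the unfiltered fit (-0.18, adjusted p = 0.0116).

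Pkp3, found in most simple and stratified epithelia, was the highest plakophilin of the 3 desmosomal ones in 4T1. Pkp3 (ENSMUSG00000054065, chromosome 7, 140658131 to 140670423, plus strand) stood at 13.1, 12.9 and 13.0 FPKM in the EMT6 controls. The KO libraries had 4.73, 5.46 and 5.25 FPKM. Every EMT6 KO value was under 5.5 FPKM, and Pkp3 fell by 1.33 ± 0.08 (edgeR, adjusted p = 7.08e-10). In 4T1, it stood at 18.0, 18.5 and 18.9 FPKM in controls and at 17.0, 18.2 and 17.2 FPKM in KO libraries. The 4T1 groups overlapped and the called change was small, at -0.16 ± 0.05 (edgeR, adjusted p = 0.0149). Pkp3 would not be called without KO replicate 3 (-0.14, adjusted p = 0.0522) or under total-count scaling (-0.08, adjusted p = 0.226).

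Summed over Pkp1, Pkp2 and Pkp3, plakophilin FPKM was 34.8 ± 1.45 in control 4T1 and 35.6 ± 0.997 in control EMT6, close totals with different shares of each gene. Pkp3 supplied 53.1 ± 1.33% of that sum in control 4T1 and 36.6 ± 1.17% in control EMT6, and Pkp2 supplied 34.2 ± 2.28% and 63.4 ± 1.17%. In the KO libraries, the sum was 31.8 ± 1.29 FPKM in 4T1 and 17.6 ± 0.667 FPKM in EMT6. The Pkp2 share in EMT6 was 62.1 to 64.2% in controls and 69.5 to 72.6% in KO libraries, which do not overlap. These shares are descriptions and were not tested. Pkp4, a relative that lies mainly at other cell contacts, was called higher in both lines, at 0.30 ± 0.05 in 4T1 and 0.23 ± 0.06 in EMT6.

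**Figure D2:**
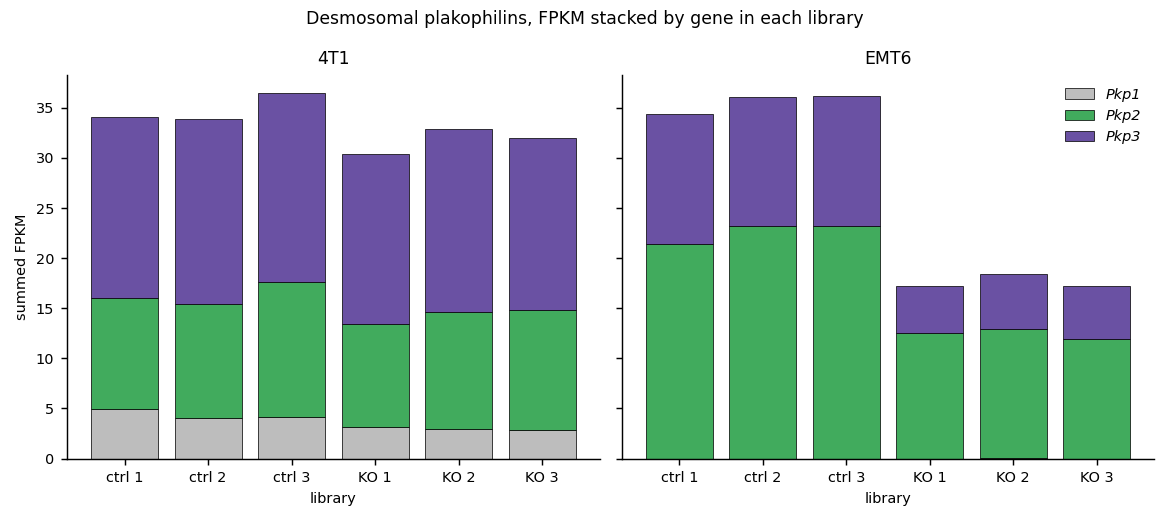
FPKM of the desmosomal plakophilins Pkp1, Pkp2 and Pkp3 stacked in each library (x axis) of 4T1 (left) and EMT6 (right), on a shared linear y axis of summed FPKM from 0. The control sums of the 2 lines are close, at 34.8 and 35.6 FPKM on average, with more Pkp2 and no visible Pkp1 in EMT6, and the EMT6 KO bars average 17.6 FPKM.

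Desmoplakin, which anchors keratin to the junction, fell to 33.6% of control in EMT6. Dsp (ENSMUSG00000054889, chromosome 13, 38335270 to 38382553, plus strand) stood at 21.5, 19.9 and 19.1 FPKM in the EMT6 controls, while the KO libraries read 7.20, 6.57 and 6.50 FPKM. The groups were well separated, and Dsp fell by 1.57 ± 0.06 (edgeR, adjusted p = 6.18e-12). In 4T1, Dsp stood at 23.7, 25.6 and 23.9 FPKM in controls and at 28.6, 28.2 and 28.0 FPKM in KO libraries. All KO values were the higher ones, and the called change was small, at 0.13 ± 0.05 (edgeR, adjusted p = 0.0168). The 4T1 call was lost without control replicate 1 (0.11, adjusted p = 0.0901), control replicate 3 (0.11, adjusted p = 0.0837), KO replicate 1 (0.12, adjusted p = 0.0692) or KO replicate 2 (0.13, adjusted p = 0.0562). The unfiltered fit gave 0.10 (adjusted p = 0.0876), again without a call. With scaling by total counts only, the 4T1 change was 0.21 (adjusted p = 0.000147).

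Envoplakin was the member called lower in both lines with changes of more than 1 on the log2 scale, from low levels. Evpl (ENSMUSG00000034282, chromosome 11, 116111385 to 116128903, minus strand) stood at 0.79, 0.89 and 0.56 FPKM in the 4T1 controls. The KO libraries had 0.23, 0.22 and 0.28 FPKM. Those values rest on 49 to 85 counts per control library and 23 to 31 per KO library. The groups did not overlap, and Evpl fell by 1.70 ± 0.23 (edgeR, adjusted p = 1.20e-06).

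In EMT6, Evpl stood at 0.67, 0.38 and 0.42 FPKM in controls, from 44 to 61 counts, and at 0.10, 0.05 and 0.12 FPKM in KO libraries, from 6 to 12 counts. Again no KO library reached the lowest control, and Evpl fell by 2.47 ± 0.36 (edgeR, adjusted p = 2.05e-05). Evpl passed the EMT6 filter only through its control libraries. Its fall in both lines was among the earlier results known when the members were chosen, so its p-values in the 2 lines are descriptions. The ratio of summed CPM, control over KO, was 3.09 in 4T1 (95% exact interval 2.38 to 4.05) and 5.55 in EMT6 (3.74 to 8.50). These intervals cover counting error only.

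Periplakin, the usual partner of envoplakin, was called lower in EMT6 and was not called in 4T1. Ppl (ENSMUSG00000039457, chromosome 16, 4904155 to 4950285, minus strand) stood at 5.02, 4.44 and 3.66 FPKM in the EMT6 controls, while the KO libraries read 1.48, 1.31 and 1.28 FPKM. The change was -1.68 ± 0.12 (edgeR, adjusted p = 8.52e-09). In 4T1, it stood at 17.7, 18.6 and 17.1 FPKM in controls and at 20.37, 20.98 and 19.58 FPKM in KO libraries. All 4T1 KO values lay above all controls, but the change of 0.11 ± 0.05 was not called (edgeR, adjusted p = 0.0641). It would be called with scaling by total counts only (0.19, adjusted p = 0.00142), without control replicate 2 (0.16, adjusted p = 0.0107) or without KO replicate 3 (0.14, adjusted p = 0.0317).

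Perp went from near absence to a moderate level in EMT6. Perp (ENSMUSG00000019851, chromosome 10, 18720768 to 18732821, plus strand) stood at 0.21, 0.08 and 0.21 FPKM in the EMT6 controls, from 6, 3 and 8 counts. In the EMT6 KO libraries it stood at 7.55, 6.61 and 7.68 FPKM, from 286, 255 and 236 counts. Every KO library was far above every control, and Perp rose by 5.41 ± 0.23 (edgeR, adjusted p = 1.33e-11). This rise was among the earlier results known when the members were chosen, and Perp passed the EMT6 filter only through its KO libraries. Its p-value is therefore a description. The ratio of summed CPM was 43.1 (95% exact interval 26.8 to 74.4, counting error only).

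In 4T1, where Perp was the highest of the 10 members, it stood at 62.9, 52.5 and 60.1 FPKM in controls and at 45.9, 51.3 and 54.0 FPKM in KO libraries. The groups overlapped, since control replicate 2 lay below KO replicate 3, and Perp was called lower, at -0.29 ± 0.06 (edgeR, adjusted p = 0.000229). The level reached in EMT6 KO libraries, 7.28 ± 0.584 FPKM, was below the 58.5 ± 5.39 FPKM of control 4T1.

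**Figure D3:**
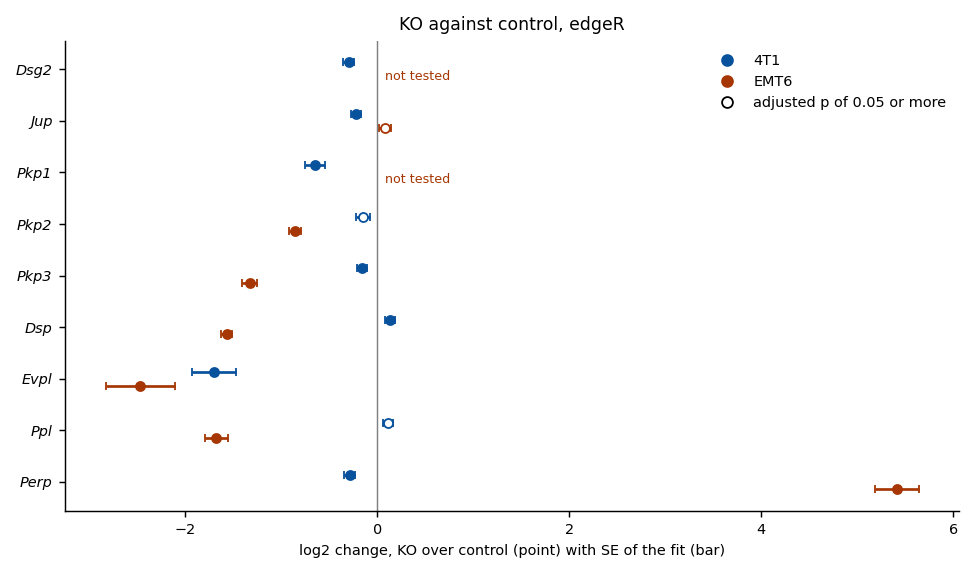
Log2 change of KO over control (x axis) from edgeR for the 9 members tested in at least 1 line (y axis), in 4T1 and EMT6. Points are estimates, bars are the SE of the fit, and open points have an adjusted p of 0.05 or more. Evpl lies at -1.70 and -2.47 in the 2 lines, Perp stands apart at 5.41 in EMT6, and Dsp, Ppl, Pkp2 and Pkp3 lie left of 0 in EMT6 while their 4T1 points lie close to 0.

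The KO effects of 6 of the 7 members tested in both lines differed between the lines by an interaction term for line and knockout fitted over the 12 libraries, against 59.2% of all 12006 genes tested in each line. The KO effect in EMT6 minus that in 4T1 was -1.70 ± 0.08 for Dsp (edgeR, adjusted p = 3.87e-16), -1.78 ± 0.12 for Ppl, -1.17 ± 0.09 for Pkp3 and -0.70 ± 0.10 for Pkp2. It was 0.30 ± 0.08 for Jup (edgeR, adjusted p = 0.00141) and 5.70 ± 0.22 for Perp. For Evpl, the difference was -0.76 ± 0.44 (edgeR, adjusted p = 0.150), with a 95% interval of -1.63 to 0.10. Without EMT6 KO replicate 2, the library with 6 counts, the Evpl difference was -0.45 (adjusted p = 0.439). With scaling by total counts only, 43.6% of the called differences were positive in place of 52.1%, and the 6 members kept their direction and call. Nedd4 itself fell further in EMT6 than in 4T1, with a called difference of -1.32 ± 0.07. The part of this in the members' differences was not tested.

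Before the knockout, the 2 lines already differed in most members. Of the 9 members tested between the control groups in the 12-library fit, 8 were called lower in EMT6 and 1 higher, against 37.2% and 37.5% of all 14301 tested genes. The lines were deposited as separate tables with the same gene sizes, and the fit uses their raw counts. The log2 difference, EMT6 minus 4T1, was -8.38 ± 0.15 for Perp, -2.01 ± 0.08 for Ppl, -0.77 ± 0.05 for Jup, -0.48 ± 0.06 for Pkp3 and -0.25 ± 0.06 for Dsp, while Pkp2 was higher, at 0.95 ± 0.07 (edgeR, adjusted p = 4.99e-13). Evpl was lower, at -0.61 ± 0.24 (edgeR, adjusted p = 0.0247), with overlapping libraries. The Evpl call was lost without 4T1 control replicate 1 (-0.58, adjusted p = 0.0725), 4T1 control replicate 2 (-0.45, adjusted p = 0.148), EMT6 control replicate 2 (-0.46, adjusted p = 0.116) or EMT6 control replicate 3 (-0.52, adjusted p = 0.0808).

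Ranked by mean FPKM, which is per length and so can be set across genes, control 4T1 ran Perp (58.5), Jup (27.3), Dsp (24.4), Pkp3 (18.5), Ppl (17.8), Pkp2 (11.9), Dsg2 (10.5), Pkp1 (4.41), Evpl (0.747) and Dsc2. In that order, the libraries of Pkp3 and Ppl overlapped, as did those of Pkp2 and Dsg2, and all other neighbours were separate. Control EMT6 ran Pkp2 (22.6), Dsp (20.2), Jup (15.7), Pkp3 (13.0), Ppl (4.37), Evpl (0.490) and Perp (0.167), with overlap of Pkp2 and Dsp only among these 7. In EMT6 KO, the order was Jup (16.5), Pkp2 (12.5), Perp (7.28), Dsp (6.76), Pkp3 (5.15), Ppl (1.36) and Evpl (0.0900), and only Perp and Dsp overlapped among these 7. Plakoglobin led the list in EMT6 KO.

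Promoter sequence was at hand for Dsp and Jup, the plaque genes with the largest and smallest change in EMT6 among Jup, Pkp2, Pkp3 and Dsp, which link cadherins to keratin. The windows run from 250 bases before to 50 after the annotated start, from RefSeq on GRCm38.p6. The gene coordinates given earlier are from the deposited tables, which name no build, so the positions cannot be set beside each other. The Dsp window is chr13:38151044-38151343 on the plus strand (73.0% G or C), and the Jup window is chr11:100397741-100398040 on the minus strand (60.7% G or C). They are printed 5′ to 3′ on the gene's strand, with motif matches on either strand in capitals.
Dsp: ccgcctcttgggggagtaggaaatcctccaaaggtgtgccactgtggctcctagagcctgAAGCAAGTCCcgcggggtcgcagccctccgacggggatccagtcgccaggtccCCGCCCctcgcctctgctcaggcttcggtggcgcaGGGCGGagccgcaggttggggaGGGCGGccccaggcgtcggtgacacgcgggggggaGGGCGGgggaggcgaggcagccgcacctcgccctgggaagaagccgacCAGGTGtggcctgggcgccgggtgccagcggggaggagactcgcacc
Jup: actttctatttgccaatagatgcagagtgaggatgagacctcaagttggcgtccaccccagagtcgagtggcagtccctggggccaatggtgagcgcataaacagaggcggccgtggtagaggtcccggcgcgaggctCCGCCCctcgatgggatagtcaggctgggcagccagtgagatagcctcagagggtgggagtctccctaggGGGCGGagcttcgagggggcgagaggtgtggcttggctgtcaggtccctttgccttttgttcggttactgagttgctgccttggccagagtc
The motifs searched were the GC box GGGCGG, the E2-box CAGGTG (a site read by SNAIL and ZEB repressors), the grainyhead-like site AACCGGTT, the AP-1 site TGANTCA and the p53 half-site. Dsp held 4 GC boxes, 1 CAGGTG whose first base is base 4 after the start, and 1 p53 half-site 190 bases before it. Jup held 2 GC boxes, 112 and 42 bases before the start, and none of the other 4 motifs. Neither window held AACCGGTT or TGANTCA. Of 32851 windows of the same length, 35.7% held GGGCGG, 20.2% CAGGTG, 8.36% the p53 half-site, 7.81% TGANTCA and 0.146% AACCGGTT. These are letter matches only.

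Other genes of the pathway were read as lists chosen with earlier results of these data known. Their counts stand against 28.0% of all tested genes called higher and 29.0% lower in 4T1, and 27.9% and 28.2% in EMT6, and no list was tested against other genes. Of 13 further desmosome and plakin family genes, 6 were tested in each line. In 4T1, 4 were called higher and 0 lower at adjusted p under 0.05 by edgeR (median 0.39), with the giant plakin Macf1 at 0.49 ± 0.05 and epiplakin (Eppk1) at 0.97 ± 0.11. In EMT6, 1 was called higher and 3 lower (median -0.10), with Eppk1 at -0.81 ± 0.12. Macf1 was called lower there, at -0.20 ± 0.06, so that Macf1 and Eppk1 went in opposite directions in the 2 lines (differences of -0.68 ± 0.08 and -1.76 ± 0.16, both called).

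Keratins form the filaments that desmoplakin holds. In 4T1, 4 of 7 tested keratins (against 29.0% of all genes) were called lower and 0 higher (median -0.43), and Krt8 and Krt18, the simple-epithelial pair, fell from 655 ± 9.28 to 399 ± 8.50 FPKM and from 943 ± 32.2 to 742 ± 29.0 FPKM. In EMT6, 3 of 5 were called lower (against 28.2%) and 1 higher (median -1.23). There Krt18 fell from 76.2 ± 4.31 to 32.5 ± 1.47 FPKM, while Krt8 rose from 293 ± 32.5 to 352 ± 8.59 FPKM. Hemidesmosome genes, which anchor keratin to the basement membrane, had 5 called lower and 0 higher of 7 in 4T1 (median -0.33) and 3 lower and 1 higher of 6 in EMT6 (median -0.93). Integrin Itgb4 fell in both, at -0.58 ± 0.06 in 4T1 and -2.17 ± 0.10 in EMT6. Laminin Lamb3 was also called lower in both, at -0.33 ± 0.05 in 4T1 and -5.75 ± 0.26 in EMT6. That EMT6 value rests on 4 to 11 counts per KO library, and Lamb3 passed the EMT6 filter only through its controls. The hemidesmosome gene called higher in EMT6 was Cd151, at 0.88 ± 0.06.

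Adherens junction genes gave a mixed picture. In 4T1, 3 of 7 were called higher and 1 lower (median -0.01), and in EMT6, 1 of 6 higher and 3 lower (median -0.11). Cdh3, which encodes P-cadherin, a classical cadherin, fell in EMT6 by 5.40 ± 0.14, from 7.47 ± 0.338 to 0.177 ± 0.0231 FPKM, and rose in 4T1 by 1.94 ± 0.46 from 0.0800 ± 0.0436 FPKM. Catenin Ctnnb1, the closest relative of plakoglobin, rose in EMT6 by 0.34 ± 0.06. Of 10 cornified envelope partners, only Tgm1, a crosslinking enzyme, was tested in 4T1 (1.58 ± 0.40, called higher), and 0 were tested in EMT6. Tgm1 and the 4T1 rise of Cdh3 each rest on 3 to 8 counts per 4T1 control library. Both genes passed the 4T1 filter only through their KO libraries, which favours a higher call, so these 2 calls are descriptions.

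Among 14 epithelial transcription factors, 7 were tested in EMT6, with 5 called lower and 1 higher (median -0.95). Elf3 fell there from 11.3 ± 0.798 to 1.79 ± 0.145 FPKM, Klf5 from 19.8 ± 1.02 to 8.61 ± 0.999 FPKM, and Trp63, which encodes p63, from 4.90 ± 0.406 to 2.53 ± 0.0493 FPKM. Ehf had 0 counts in every EMT6 KO library. At a floor of 3 counts per library its change is -2.13 or lower, and the median with that value is again -0.95. In 4T1, 12 were tested, with 4 called higher and 4 lower (median -0.14). Of 6 repressors of epithelial junction genes, 3 of 5 tested rose in EMT6 and 0 fell (median 0.38), with Twist1 at 0.39 ± 0.08, Zeb2 at 0.38 ± 0.07 and Snai1 at 0.49 ± 0.11. In 4T1, 1 of 3 rose (Zeb2, 0.19 ± 0.06) and 0 fell.

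Perp, itself a p53 target, was also set beside a list of p53 and its targets. Of 16 tested genes of p53 and its targets, 10 were called lower and 2 higher in EMT6 (median -0.57, against 28.2% and 27.9% of all genes), with the cell cycle inhibitor Cdkn1a at -0.94 ± 0.06, Ccng1 at -0.80 ± 0.05 and Zmat3 at -0.95 ± 0.08. Trp53 itself was not called there (-0.09 ± 0.06, adjusted p = 0.166). In 4T1, 5 of 15 were called higher and 6 lower (median -0.02, against 28.0% and 29.0% of all genes), with Cdkn1a at -1.61 ± 0.06 and the death receptor Fas at 2.22 ± 0.16.

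**Figure D4:**
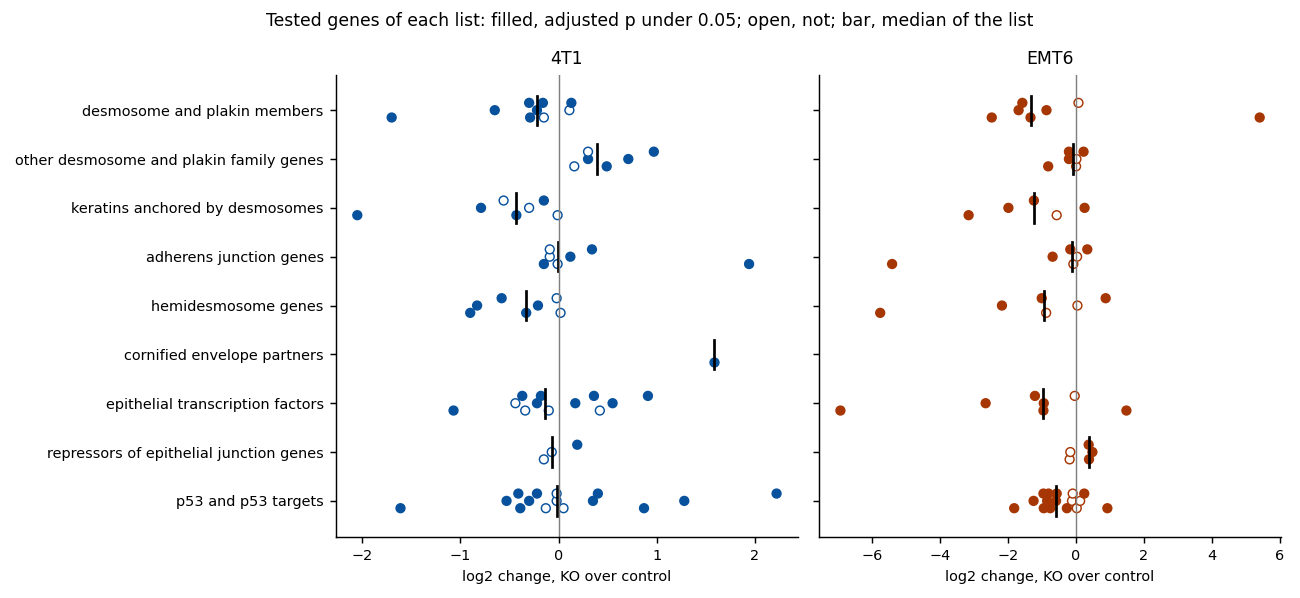
Log2 change of KO over control (x axis, a separate scale in each panel) for every tested gene of the 9 lists (y axis) in 4T1 (left) and EMT6 (right). Filled points have an adjusted p under 0.05, open points do not, and black bars are list medians. The members' median lies at -0.22 in 4T1 and -1.33 in EMT6. The EMT6 point farthest left among transcription factors is Ehf, whose fitted value rests on 0 counts in the KO libraries and is no measure of size.

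Genes whose log2 CPM over the 12 libraries was most like that of a member were searched among 8390 genes whose mean reached 5 FPKM in some group. The points are 4 groups of 3 libraries that share a line or a treatment, and the correlations are a description. For Perp they were Lbr (Pearson r = 0.995), Bcl2 (0.992) and Sertad4 (0.991). For Dsp they were Ikbke (0.992), Usp6nl (0.990) and Ctc1 (0.989). For Evpl they were Chd1l (0.965), Kansl1 (0.960) and Btc (0.957). Likeness here is of shape, not size: Lbr averaged 16.8 FPKM in control EMT6 and 29.7 in EMT6 KO, a far smaller step than that of Perp.

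Markers of other cell types moved in EMT6 beside these changes. In bulk RNA, fewer cells of a type and less RNA per cell cannot be told apart. The 6 fibroblast markers summed to 352 to 382 FPKM in EMT6 controls and 520 to 591 FPKM in KO libraries. Col1a2 stood at 199 ± 4.24 and 323 ± 21.3 FPKM, Col1a1 at 165 ± 11.5 and 202 ± 16.7, Pdgfrb at 0.953 ± 0.25 and 9.78 ± 0.16, and Col3a1 at 0.0467 ± 0.0153 and 6.77 ± 0.352. Pdgfra was called lower in EMT6, at 5.55 ± 0.321 and 4.83 ± 0.481 FPKM (-0.20 ± 0.08, edgeR, adjusted p = 0.0387), and was not called in 4T1 (5.25 ± 0.489 and 5.17 ± 0.105 FPKM, adjusted p = 0.183). Dcn, a defining fibroblast gene, stayed under 0.5 FPKM in all 4 groups. The part of these markers in the members' changes was not tested. The mammary epithelial markers summed to 347 to 413 FPKM in EMT6 controls and 378 to 392 FPKM in KO libraries, and in 4T1 to between 1840 and 1910 FPKM in controls and between 1310 and 1390 FPKM in KO libraries. The EMT6 sum is mostly Krt8, and Epcam fell there to 33.3% of control, from 1.19 ± 0.0551 to 0.397 ± 0.164 FPKM (edgeR, adjusted p = 0.000461). In 4T1, Epcam fell to 45.8%, from 149 ± 5.16 to 72.0 ± 2.42 FPKM (edgeR, adjusted p = 9.40e-16). The part of Epcam in the members' changes was not tested. Of 6 leukocyte markers, 5, with Ptprc among them, were under 0.5 FPKM in every group, and all 4 endothelial markers were. The leukocyte sum, almost all Cd68, was 10.5 to 12.6 FPKM in 4T1 controls and 17.4 to 21.1 in 4T1 KO, and 17.8 to 21.8 in EMT6 controls and 6.77 to 8.53 in EMT6 KO. Stratified keratinocyte markers (Krt1, Krt10, Ivl, Lor) summed to at most 1.15 FPKM in any library.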

How the data were processed

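Gene counts and FPKM of 12 RNA-seq libraries were used. The authors deposited whole numbers per gene in columns headed by library name, which were read here as raw counts with no normalization. The authors also deposited FPKM, which was recomputed from the counts, exonic lengths and library totals with a largest difference under 0.006 over the 340146 values per line. The submitters' processing notes name cutadapt 1.9.1, HISAT2 2.2.1, HTSeq 0.6.1, DESeq2 and GRCm38, with no roles. The use of strand in counting is not known here. Dsp, Pkp1 and Dsg2 overlap low-count genes (Gm10129 with 1 to 17 counts, Gm36938 with 0 to 11, Gm16090 with 0 to 4). Coordinates are those printed in the deposited tables, which name no build, and only 2.83% of 52073 shared genes had the start and end of GENCODE M21 (GRCm38).

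Counts were fitted per line with edgeR 4.0.16 (R 4.3.3; TMM scaling, filterByExpr, robust quasi-likelihood test), and the interaction and the contrast of control lines came from 1 fit of all 12 libraries. P-values were adjusted (Benjamini-Hochberg) over all tested genes, and scripts were tested on simulated data. Intervals of changes are 1.96 SE wide on each side. Variation between libraries of a group (edgeR common value) amounted to 4.82% for 4T1, and for EMT6 to 6.73%. With 3 libraries against 3, a single-gene exact permutation test cannot go below p = 0.1, so none was used. Alternatives were DESeq2 1.42.0, its size factors, scaling by total counts, no filter, a replicate block and leaving out each library.

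Members and lists were chosen with earlier results of these data known. All members were named, with at most 3 called genes of each list per line by lowest adjusted p, and the highest markers of other cell types above 5 FPKM, at most 4 per line. Outside that rule are Cdh1, Epcam, Dcn, Col3a1, Ehf, Trp53, Dsg3, Lamb3 in 4T1, and Krt8 and Pdgfra in EMT6. These were chosen after their values were seen. Replicate numbers did not pair the libraries, since same-numbered control and KO libraries did not deviate together.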

Additional observations from a re-analysis of the deposited data

Results flagged for a closer look

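The KO effect differed between the lines, by the interaction of line and knockout in edgeR, for 6 of the 7 members tested in both lines, against 59.2% of all 12006 genes tested in both. The effect in EMT6 minus that in 4T1, on the log2 scale, was -1.70 for Dsp, -1.78 for Ppl, -1.17 for Pkp3 and -0.70 for Pkp2. It was 0.30 for Jup and 5.70 for Perp. The Perp value starts from 3 to 8 counts per EMT6 control library. For Nedd4 itself the difference was -1.32, and its part in these differences was not tested.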

How the results depend on the processing

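Of 448 log2 changes of members under alternatives, 429 kept their direction and side of the threshold, and none reversed. All 77 changes in EMT6 and all 119 differences between the lines did so. The number of members called higher in 4T1 was 1, and it was 2 with scaling by total counts only, 0 with no low-count filter, 2 with the replicate block, and 0 to 2 over the fits that left out 1 library. The cause was not tested. With the replicate block, Pkp2 (-0.15, adjusted p = 0.0215) and Ppl (0.11, adjusted p = 0.0320) would be called in 4T1, and the block changed no other member's call. Over all genes it gave 3746 higher and 3930 lower in 4T1, against 3725 and 3864. Correlations of deviations of same-numbered libraries were -0.0222, -0.0145 and 0.00775 in 4T1 and -0.0805, -0.00198 and -0.0964 in EMT6. With no filter, Pkp2 in 4T1 was -0.18 (adjusted p = 0.0116). Leaving out 1 library at a time, the EMT6 change of Perp ran from 5.07 to 5.64 and that of Evpl from -2.72 to -2.16. Depth limits Evpl and the EMT6 controls of Perp, at 6 to 85 and 3 to 8 counts per library.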
